A study of Homo sapiens with 8 samples.

Results

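The 30 genes described here make cholesterol or control its supply, and they were taken by name from a fixed list of cholesterol synthesis, uptake and transport genes, out of 19752 protein-coding genes tested. By step, 19 synthesise cholesterol, 5 control the SREBP factors, 3 take up cholesterol or move it inside the cell, and 3 export or store it. The cells were KGN, a long-established line grown from a human granulosa tumour of the ovary, here at passages 5 to 8. Control cells received no butyrate and treated cells received it at 1 mM for 6 h. Butyrate is a fatty acid made by gut bacteria that blocks histone deacetylases. Chromatin immunoprecipitation and sequencing (ChIP-seq) was done for 2 histone marks, H3K9ac (lysine 9 of histone H3, acetylated) and H4K16ac (lysine 16 of histone H4, acetylated). Each condition had 1 library per mark, so differences between control and butyrate have no replicate check, no difference was tested, and a gene is only said to be marked in one list or the other.

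Cholesterol is built from acetyl-CoA through mevalonate, squalene and lanosterol, and nearly every enzyme of the route is a target of the SREBP transcription factors. SCAP escorts SREBP from the endoplasmic reticulum to the Golgi apparatus when sterol is scarce, and the INSIG proteins hold the complex back when sterol is plentiful. Granulosa cells use cholesterol as the substrate of steroid hormones. Acetylation of H3 at lysine 9 usually marks active gene starts, and acetylation of H4 at lysine 16 is associated with open chromatin.

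The sequences before the gene starts are given first because the H3K9ac peaks described later lie over or beside most of them. The windows are the 250 bases before the start, 5′ to 3′ on the strand of the gene, from the RefSeq promoter table of GRCh38.p14, which matched 26 of the 30 genes. Capitals mark matches, on either strand, to a 10-letter form of the sterol regulatory element, which SREBP binds, or to CCAAT, the box that NF-Y binds. A match is a run of letters, not evidence of binding. SREBF2, the gene of SREBP2, lies at chr22:41832855-41833104 on the plus strand and is shown for its sterol regulatory element match, the first run of capitals. MVK at chr12:109573544-109573793 and NSDHL at chrX:152830813-152831062, both on the plus strand, hold the most CCAAT matches. FDPS at chr1:155308616-155308865, on the plus strand, had start peaks of both marks in control, as had MVK and NSDHL. ABCA1 at chr9:104928156-104928405, on the minus strand, had no peak of either mark at its start.
SREBF2: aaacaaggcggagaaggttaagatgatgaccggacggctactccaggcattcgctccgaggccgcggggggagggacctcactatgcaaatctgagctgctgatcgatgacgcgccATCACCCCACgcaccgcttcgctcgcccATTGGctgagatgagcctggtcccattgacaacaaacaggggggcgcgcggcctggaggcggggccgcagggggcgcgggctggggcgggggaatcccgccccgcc
MVK: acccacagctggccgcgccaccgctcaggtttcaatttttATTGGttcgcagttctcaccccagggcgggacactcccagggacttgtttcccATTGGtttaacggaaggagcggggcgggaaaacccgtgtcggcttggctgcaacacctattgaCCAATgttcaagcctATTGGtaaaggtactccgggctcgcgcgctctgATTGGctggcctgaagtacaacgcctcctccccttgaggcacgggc
NSDHL: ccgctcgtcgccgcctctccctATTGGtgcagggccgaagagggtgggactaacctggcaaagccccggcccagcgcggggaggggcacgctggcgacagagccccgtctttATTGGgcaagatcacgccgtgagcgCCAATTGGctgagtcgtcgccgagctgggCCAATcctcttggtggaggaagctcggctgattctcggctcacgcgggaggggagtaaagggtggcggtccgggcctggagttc
FDPS: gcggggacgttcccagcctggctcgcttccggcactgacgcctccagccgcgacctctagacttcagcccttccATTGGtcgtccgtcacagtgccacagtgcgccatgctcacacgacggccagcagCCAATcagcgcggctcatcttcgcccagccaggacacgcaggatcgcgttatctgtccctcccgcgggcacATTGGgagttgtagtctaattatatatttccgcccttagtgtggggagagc
ABCA1: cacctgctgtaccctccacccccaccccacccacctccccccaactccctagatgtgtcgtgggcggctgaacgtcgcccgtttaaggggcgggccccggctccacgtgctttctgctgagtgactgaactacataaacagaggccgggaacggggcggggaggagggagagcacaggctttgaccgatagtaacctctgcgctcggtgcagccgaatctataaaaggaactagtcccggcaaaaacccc

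CCAAT and the GC box, GGGCGG, were both frequent before the synthesis genes. CCAAT occurred in 17 of the 26 windows (65.4%), against 34.4% of 15811 windows of protein-coding genes, and 10 of the 26 (38.5%) held 2 or more CCAAT matches, against 11.5%. Of the 16 synthesis genes with a window, 13 had a CCAAT match and 9 had 2 or more. MVK, the gene of mevalonate kinase, and NSDHL, which encodes a sterol dehydrogenase, each had 5. In NSDHL the letters CCAATTGG hold overlapping matches on the 2 strands, which were counted separately. Outside synthesis, CCAAT occurred in 2 of 5 SREBP control genes, 1 of 3 uptake and movement genes and 1 of 2 export and storage genes. The sterol regulatory element form was searched on both strands with 1 free letter. It occurred in SREBF2 alone among the 26 windows (3.85%), 134 to 125 bases before the start, and in 17 of all windows (0.108%). Other forms of the element were not searched, so a window without this form is not shown to lack the element. GGGCGG occurred in 24 of 26 windows (92.3%), 14 of the 16 synthesis windows among them, against 56.0% of all windows. The median GC content was 67.0% in the 26 windows and 62.4% in all windows. It was lowest before LBR, the gene of the lamin B receptor and sterol reductase, at 36.8%, and highest before INSIG1 at 78.4%. The 26 windows lie at the listed start nearest the authors' start, and the windows of all genes at the first start listed. These shares describe the listed genes and were not tested.

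The lists differ in size and limits, which bears on every count below. The authors listed 22215 merged H3K9ac peaks over 20.3 Mb in control and 79356 over 59.8 Mb with butyrate, each to a q of about 0.05. For H4K16ac they listed 73586 peaks over 30.7 Mb in control and 33752 over 11.9 Mb with butyrate, limited on a p of about 0.005 rather than on q. Of these H4K16ac peaks, 39.6% in control and 1.13% with butyrate had a q of 0.05 or less. Peak names in both H4K16ac lists carry the letters k12, so H4K16ac here means the libraries so labelled. The nonspecific immunoglobulin (IgG) lists held 5 peaks in control and 2 with butyrate, none of them at or inside the 30 genes. Granulosa markers with H3K9ac at the start numbered 4 of 14 in control (FOXL2, INHA, INHBB and KITLG) and 9 with butyrate. The counts for theca and stroma markers were 1 and 5 of 8, for blood and immune markers 1 and 3 of 7, for endothelial markers 0 and 2 of 6, and for epithelial markers 1 and 2 of 5. Over all genes tested, 54.6% had H3K9ac at the start in control and 63.7% with butyrate. Among granulosa markers, the starts of AMH, FSHR, CYP19A1, NR5A1 and GATA4 had no H3K9ac peak in either list. The part of these differences in the results below was not tested.

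H3K9ac lay at the start of nearly all cholesterol genes in both conditions. A gene is marked when a merged peak lies within 1 kb of its start, by the authors' annotation or by RefSeq. In control 27 of the 30 genes were marked (90.0%), against 54.6% of all genes, and with butyrate the same 27 were marked, against 63.7% of all genes. No cholesterol gene was marked in the butyrate list alone, against 9.29% of all genes, and none in the control list alone, against 0.182% of all genes and 0.334% of the genes marked in control. With 27 genes already marked in control, only 3 could have been added. All 5 SREBP control genes, all 3 uptake and movement genes and 18 of 19 synthesis genes were marked in both lists. Export and storage differed, since only SOAT1, which esterifies cholesterol for storage, was marked of 3 genes.

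**Figure D1:**
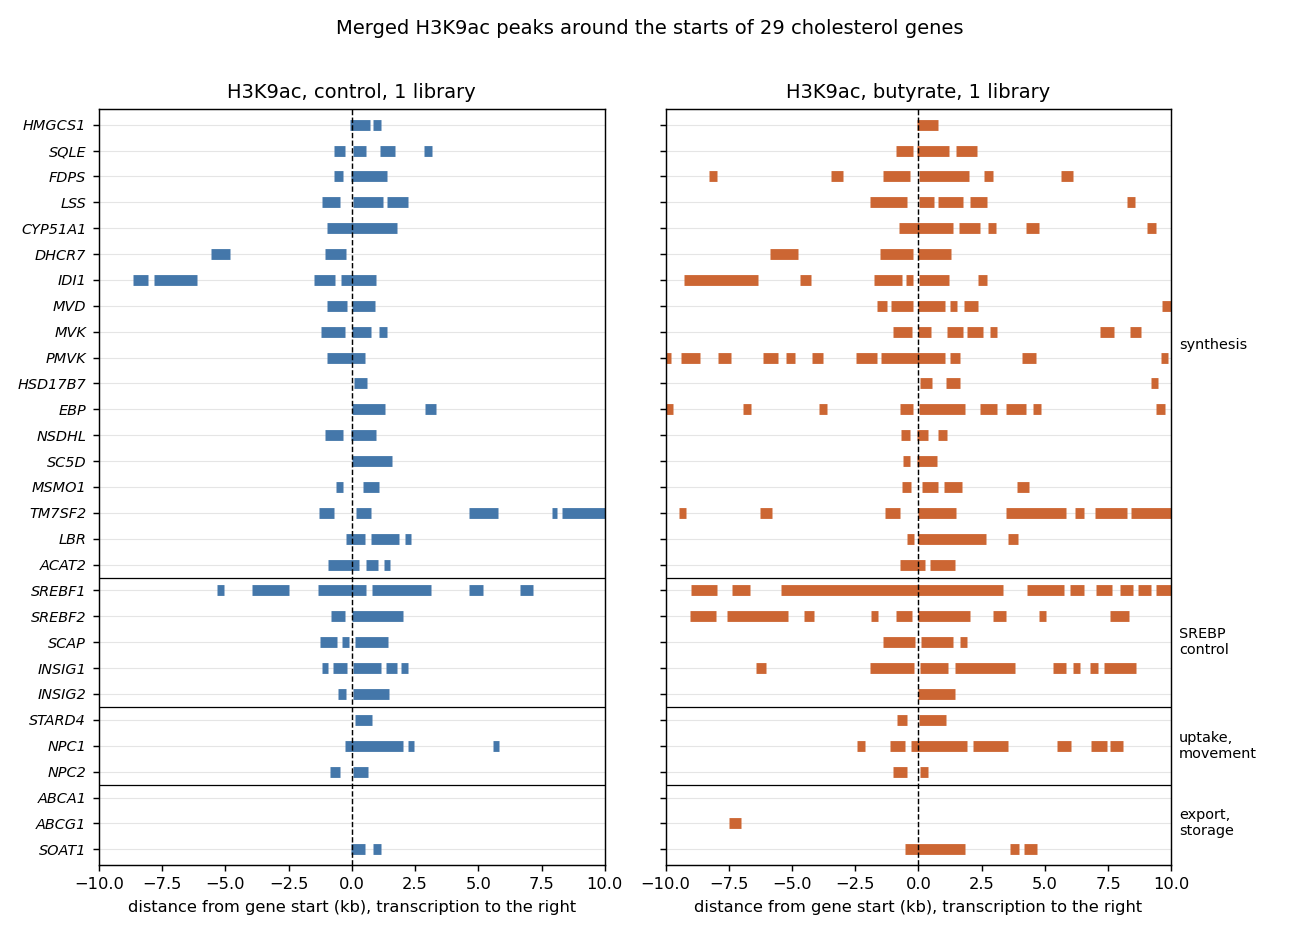
Position of merged H3K9ac peaks (bars) within 10 kb of the start of 29 cholesterol genes, in control (left) and butyrate (right), 1 library each, with distance from the start in kb on the x axis and transcription to the right. Peaks lie beside the dashed start line in 27 genes of both lists, often on both sides of it with a gap just upstream, and ABCA1 has none in view. FDFT1 is not drawn because its strand was not read.

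The 3 genes without a start peak were FDFT1, ABCA1 and ABCG1. FDFT1 encodes squalene synthase, the first enzyme committed to sterols. It had 4 H3K9ac peaks inside the gene in control and 6 with butyrate, the nearest lying 6310 bp from an end of the gene in control and 5430 bp with butyrate. Because neither the authors' columns nor the promoter table gave its strand, both ends were searched, and a start inside the gene used in these cells would be missed. Genes without a strand were kept only when no histone peak lay near either end, so FDFT1 could only be counted as unmarked. The counts of marked genes above include it as such. ABCA1 exports cholesterol to lipid-poor apolipoprotein. Its nearest H3K9ac peak lay 40058 bp from a start in control and 39533 bp with butyrate, and none of the 4 histone lists had a peak anywhere in its 147.2 kb. ABCG1 exports cholesterol to high-density lipoprotein. Its single control peak inside the gene, at chr21:42234394-42234695, lay 21389 bp from the nearest start searched, and the butyrate list had 7 peaks inside the gene, the nearest 4747 bp from a start. The 2 exporters were thus unmarked at the starts searched in both lists, and they differed inside the gene. For ABCG1, which had no window in the promoter table, a start inside the gene other than those searched would be missed. One of its butyrate peaks that overlapped no control peak lay at chr21:42219245-42220020.

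By the authors' −log10 q the strongest start peaks belonged to EBP, FDPS and CYP51A1 in control and to EBP, CYP51A1 and SREBF1 with butyrate. This value and the fold of pileup over local background describe a peak within its own list. By fold, IDI1 (9.18) came before CYP51A1 (8.34) in control. With butyrate NSDHL (8.85), DHCR7 (8.19), IDI1 and STARD4 (both 7.96), NPC1 (7.51), HSD17B7 (7.41) and SREBF2 (7.40) came before SREBF1 (7.35). The butyrate value of IDI1 belonged to a peak at chr10:1055238-1058149, over the upstream one of its 2 starts, which lies near the start of WDR37. At the downstream start of IDI1 the butyrate peaks had folds of 4.78, 4.68 and 3.82, and the control peaks 9.18 and 6.95. EBP encodes the sterol isomerase that acts after lanosterol. Its peak had a −log10 q of 29.1 and a fold of 12.1 in control, and 26.4 and 10.7 with butyrate. FDPS, the farnesyl diphosphate synthase gene, had a −log10 q of 29.0 in control and 14.4 with butyrate. CYP51A1, the lanosterol demethylase gene, had 26.8 and 23.1, and SREBF1 had 19.4 and 21.2. The weakest in control was SQLE, the squalene epoxidase gene, at 3.79, followed by TM7SF2 at 3.90 and DHCR7 at 4.61, and their values in the butyrate list were 11.4, 11.7 and 18.8. The weakest with butyrate was MVK at 6.00, which had 10.3 in control. The median over the marked cholesterol genes was 11.7 in control, where all marked genes had 13.6, and 13.6 with butyrate, where all marked genes had 12.6. Both medians lay close to those of all marked genes.

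A stricter limit on strength changed which genes count as marked in one list alone. With a −log10 q of at least 5 in both lists, SQLE, DHCR7 and TM7SF2 were marked with butyrate alone, 3 of 30 genes against 7.51% of all genes, and none in control alone against 0.997%. With a fold of at least 5, 7 were marked with butyrate alone (SQLE, DHCR7, MSMO1, TM7SF2, INSIG2, STARD4 and SOAT1), against 8.17% of all genes. By that limit MVK and ACAT2, the gene of the cytosolic acetoacetyl-CoA thiolase, were marked in control alone, against 6.47% of all genes. With equal numbers of the strongest peaks from each list, all 27 genes were marked in both and none in 1 list alone, where 3.23% of all genes were marked with butyrate alone and 2.66% in control alone.

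H3K9ac was spread over more sequence at most starts in the butyrate list. The summed width of the peaks within 1 kb of a start had a median of 1704 bp in control and 2163 bp with butyrate over the 27 genes. It was larger with butyrate in 20 and smaller in 7 (74.1% larger), against 80.8% larger among the 10754 genes marked in both lists. The median ratio of butyrate to control was 1.24, ranging from 0.660 to 3.04, against 1.38 over those 10754 genes. By step the median ratio was 1.40 in synthesis, 1.11 in SREBP control and 1.24 in uptake and movement.

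SREBF1 had the widest H3K9ac of the set in both lists. It encodes SREBP1, which drives fatty acid as well as sterol genes, and the peaks of 2 starts are summed for it here. In control the summed width was 6608 bp, in 4 peaks of 248, 2109, 2349 and 1902 bp. With butyrate it was 14080 bp, in a peak of 8802 bp at chr17:17833629-17842430 and one of 5278 bp at chr17:17818367-17823644. The larger butyrate peak reached 5444 bp upstream of the start. In control the peaks within 1 kb reached 1332 bp upstream, and 2 separate control peaks lay farther out, at -3967 to -2503 bp and -5326 to -5063 bp relative to the start. IDI1, the isopentenyl diphosphate isomerase gene, had 4554 bp in control and 5543 bp with butyrate, summed over 2 starts, the farther one near the start of another gene. CYP51A1 followed in control at 2771 bp and had 2163 bp with butyrate. PMVK, the phosphomevalonate kinase gene, had 3500 bp with butyrate, also over 2 starts, and 1525 bp in control. Counting only peaks within 1 kb of the start used for distances, SREBF1 was still widest at 4251 bp in control and 8802 bp with butyrate. By that count it was followed by CYP51A1 (2771 bp) and SREBF2 (2612 bp) in control and by FDPS (3053 bp) and LSS (3043 bp) with butyrate.

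The narrowest H3K9ac in control was at HSD17B7, a sterol ketoreductase gene, at 521 bp, and its width with butyrate was 1083 bp, of which 506 bp belonged to the peak within 1 kb of the start used for distances. STARD4, a soluble sterol carrier, had 650 bp in control and 1491 bp with butyrate. DHCR7, which encodes the reductase of the last step to cholesterol, had the largest ratio, 3.04. Its control list held 1 peak of 855 bp at chr11:71448619-71449473, which lies upstream of the start used for distances and over the other start searched. The butyrate list held a peak of 1280 bp at the same place and another of 1320 bp over the former start and downstream of it, at chr11:71447102-71448421. SOAT1 had 865 bp in control and 2377 bp with butyrate, a ratio of 2.75. The smallest ratio, 0.660, was at SC5D, with 1601 bp in control and 1057 bp with butyrate. By summed width, the narrowest with butyrate were HMGCS1, the hydroxymethylglutaryl-CoA synthase gene, NPC2, a lysosomal cholesterol carrier, and MSMO1, a methylsterol oxidase gene. HMGCS1 had 1063 bp in control and 827 bp with butyrate, NPC2 had 1005 and 845 bp, and MSMO1 had 939 and 1020 bp. Counting only the start used for distances, HSD17B7 was narrowest with butyrate, at 506 bp. Wide and narrow starts thus occurred within the same pathway, from 521 to 6608 bp in control.

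**Figure D2:**
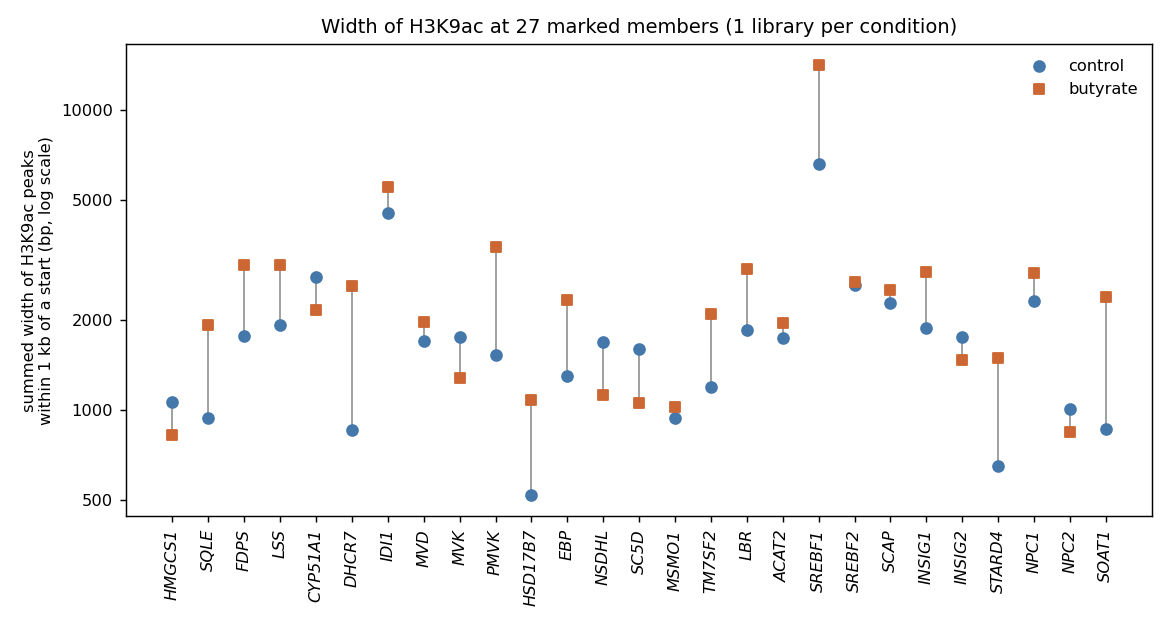
Summed width of the H3K9ac peaks within 1 kb of a start (bp, log scale) for the 27 marked genes, with control as circles and butyrate as squares, 1 library each. The butyrate value is above the control value in 20 genes and below it in 7, and SREBF1 is highest in both at 6608 and 14080 bp.

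Compared with control, H3K9ac with butyrate was extended in more genes upstream than downstream. The butyrate peaks extended farther upstream than the control peaks in 22 of 27 genes (81.5%), against 75.6% of all genes compared, and farther downstream in 16 (59.3%), against 72.3%. The median reach was 879 bp upstream in control and 892 bp with butyrate, and 1141 and 1291 bp downstream. The median change over the 27 genes was 191 bp upstream and 147 bp downstream. In the 18 synthesis genes it was 147 bp upstream and 333 bp downstream, with 14 genes extended upstream and 12 downstream. The strongest summit lay downstream of the start in 18 of 27 genes in control, a median of 237 bp from it. With butyrate it lay downstream in 20 of the 25 genes counted, a median of 219.5 bp from the start. SREBF1 and IDI1 were left out with butyrate, because their strongest summits lay far upstream, at -3715 and -7697 bp relative to that start. The side of the strongest summit was not counted over all genes. The start base itself lay inside a peak in 15 of 27 genes in control (55.6%, all genes 56.8%) and in 17 with butyrate (63.0%, all genes 64.8%). A gap at the start with a peak on each side was seen in 8 genes in control (29.6%, all genes 19.6%) and in 9 with butyrate (33.3%, all genes 20.1%).

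The printed windows of 4 genes lay largely between peaks, with the downstream peak beginning close to the start. In MVK the control peaks at chr12:109572558-109573518 and chr12:109573782-109574566 covered 12 of the 250 bases before the start, and the butyrate peaks covered 29. In SREBF2 the cover was 10 bases in control and 17 with butyrate, in NSDHL 23 and 75, and in FDPS 25 and 0. In each of these 4 genes all 250 bases after the start were covered in control, and with butyrate all of them in MVK, SREBF2 and NSDHL and 245 in FDPS. Over the 25 marked genes with a window, peaks covered on average 30.5% of the 250 bases before the start in control and 31.6% with butyrate. After the start they covered 81.8% and 93.7%. Over all promoters with a peak within 1 kb the averages before the start were 44.6% and 55.3%, and after it 83.6% and 84.9%. Those promoters were taken at the first start listed, and the cholesterol genes at the listed start nearest the authors' start. The sets are therefore not measured alike, here and for the CCAAT matches below, and the part of this in their differences was not tested. The CCAAT letters lay mostly in the uncovered part. Of the 39 CCAAT matches of the cholesterol genes, 3 (7.69%) overlapped an H3K9ac peak in control and 3 with butyrate. Over all promoters with a peak within 1 kb, 20.2% of 5060 matches overlapped one in control and 30.1% of 5534 with butyrate. The sterol regulatory element match of SREBF2 lay outside the peaks of both lists. What the uncovered bases hold in these cells was not measured, and no difference in cover was tested.

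Inside the genes the butyrate H3K9ac list held more peaks. Peaks overlapping any part of the gene numbered 61 in control and 138 with butyrate, or 5.91 and 13.4 per 100 kb of gene. More were listed with butyrate in 21 of 30 genes (70.0%), against 49.4% of all genes, and fewer in 4 (13.3%), against 4.34%. The ratio of butyrate to control was 2.26 for the cholesterol genes and 2.95 for all genes. Of the 61 control peaks 59 overlapped a butyrate peak (96.7%, against 93.0% of the control peaks inside all genes). Of the 138 butyrate peaks 84 overlapped no control peak (60.9%, against 72.1% of the butyrate peaks inside all genes). Farther than 1 kb from a start the counts were 22 in control and 98 with butyrate, a ratio of 4.45, against 6.27 for all genes. These 84 had a median fold of 3.13 and a median width of 424 bp, and the other 54 a median fold of 5.34 and 1106.5 bp. By these medians the added peaks were narrower and weaker than the other 54, and 13 of the 84 reached a −log10 q of 5. All merged peaks of the butyrate H3K9ac list had a median width of 472 bp, so narrow peaks were common in that list. Fold and −log10 q of added peaks inside all genes were not computed here.

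This excess depended on list length. With the 22215 strongest peaks of each list, the counts were 61 in control and 46 with butyrate, more in 6 genes (20.0%, all genes 12.5%) and fewer in 11 (36.7%, all genes 17.9%). The ratio was then 0.754 for the cholesterol genes and 0.956 for all genes. With a −log10 q of at least 5 in both lists the counts were 42 and 56, more with butyrate in 12 genes (40.0%, all genes 25.2%) and fewer in 2 (6.67%, all genes 4.45%). The number of sequenced reads in each library was not used here, and the part of depth in these counts was not tested.

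SREBF2 showed the largest difference in the number of H3K9ac peaks inside a gene. Its single control H3K9ac peak, 2048 bp at chr22:41833095-41835142, began at the start. The butyrate list held a peak of nearly the same bounds, 2055 bp at chr22:41833088-41835142, and 13 more downstream that overlapped no control peak. The widest of these were 2539 bp at chr22:41854913-41857451, with a fold of 5.74, and 1831 bp at chr22:41858548-41860378, with a fold of 4.79, centred 23.1 and 26.4 kb after the start. PMVK had 1 peak in control and 8 with butyrate, 7 of them overlapping no control peak. SREBF1 had 9 and 15, NPC1, which exports cholesterol from lysosomes, had 3 and 9, and ABCG1 had 1 and 7. The H3K9ac peaks covered 31.2% of the bases of SREBF1 in control and 77.0% with butyrate, and 2.75% and 14.3% of those of SREBF2. Fewer peaks were listed with butyrate in HMGCS1 (2 and 1), SQLE (3 and 2), LBR (3 and 2) and ACAT2 (3 and 2). By step the control and butyrate counts were 35 and 72 in synthesis, 18 and 44 in SREBP control, 5 and 11 in uptake and movement, and 3 and 11 in export and storage.

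**Figure D3:**
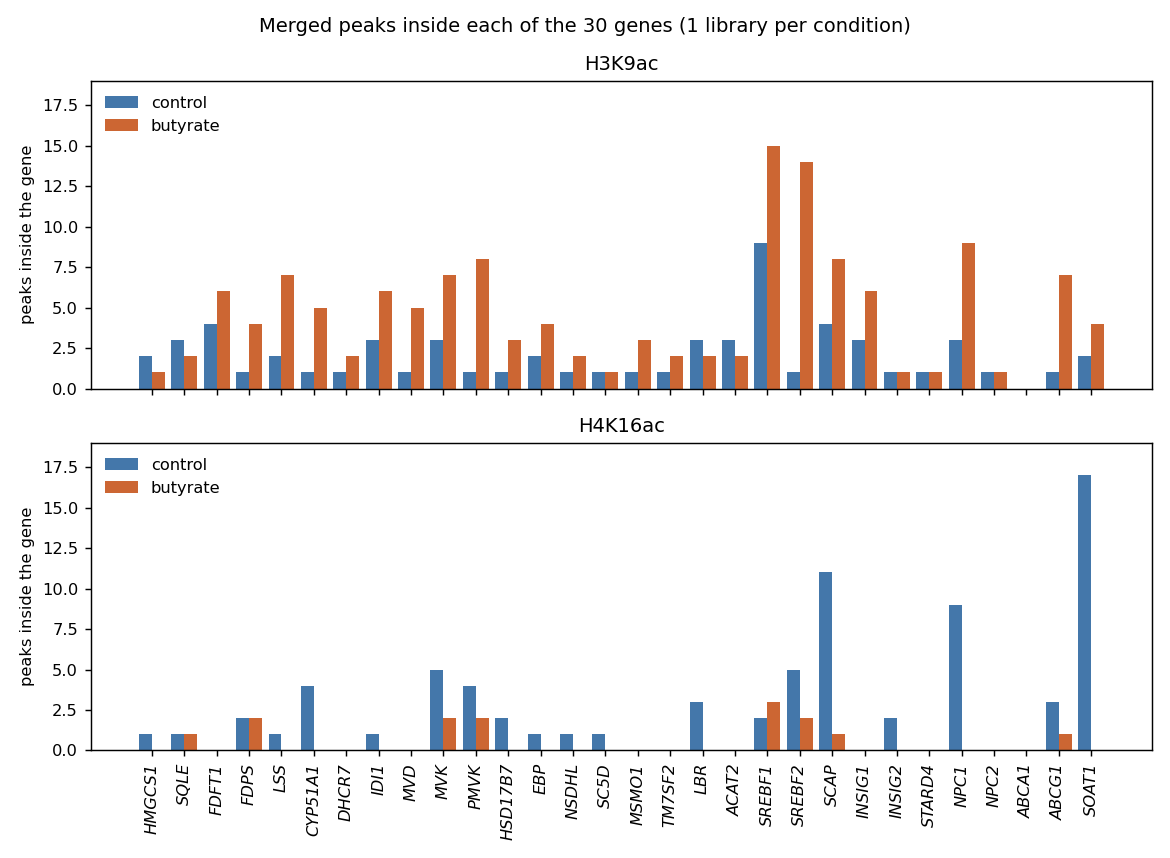
Number of merged peaks inside each of the 30 genes for H3K9ac (top) and H4K16ac (bottom), with 1 bar for control and 1 for butyrate, 1 library each. H3K9ac bars are higher with butyrate in 21 genes, led by SREBF2 at 1 and 14, and H4K16ac bars are lower with butyrate in 17, led by SOAT1 at 17 and 0.

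H4K16ac showed the opposite balance, with fewer start peaks in the butyrate list. In control 9 of the 30 genes were marked, against 18.8% of all genes, and with butyrate 2 (6.67%), against 4.63%. The 7 genes marked in control alone (16.8% of all genes) were FDPS, DHCR7, MVK, NSDHL, SREBF1, SCAP and INSIG1. None was marked with butyrate alone, against 2.57% of all genes. PMVK and EBP were marked in both lists, against 2.07% of all genes. Of the genes marked in control, 7 of 9 were unmarked with butyrate (77.8%), against 89.0% of all genes marked in control. With so few genes the 2 shares cannot be told apart. With the RefSeq start only, 8 genes were marked in control and all 8 were unmarked with butyrate. By step, 6 synthesis genes were marked in control and 2 with butyrate, 3 SREBP control genes in control and 0 with butyrate, and no uptake, movement, export or storage gene in either list.

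Most H4K16ac start peaks had a q above 0.05, and their median summed width in control was 496 bp, against 471 bp over all genes marked in control. SCAP, the sterol sensor that escorts SREBP, had the strongest, 900 bp at chr3:47477698-47478597 with a −log10 q of 2.09 and a fold of 3.99. In FDPS the peak was 616 bp at chr1:155309035-155309650 with a −log10 q of 1.42. In INSIG1 it was 414 bp at chr7:155296506-155296919 with a −log10 q of 1.33. These 3 were the only control start peaks of the set at a q of 0.05 or less. The −log10 q was 1.06 in NSDHL, 0.925 in MVK, 0.886 in PMVK, 0.734 in SREBF1, 0.727 in EBP and 0.692 in DHCR7. The median over the 9 genes was 0.925, against 1.42 over all genes marked in control. With equal numbers of the strongest peaks, FDPS, SCAP and INSIG1 were marked in control alone (10.3% of all genes) and PMVK and EBP with butyrate alone (3.32% of all genes). With q at 0.05 or less in both lists, FDPS, SCAP and INSIG1 were marked in control alone (10.5% of all genes) and PMVK with butyrate alone (0.0203% of all genes).

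In the 2 genes marked in both lists the peaks lay in different places. PMVK has 2 starts in the annotations, about 6 kb apart. Its control peaks lay beside the downstream one, the stronger at chr1:154935767-154936135. Its butyrate peaks lay beside the upstream one, at chr1:154942035-154942321 and chr1:154942735-154943031, the latter with a −log10 q of 1.42. In EBP the control peak was at chrX:48522726-48523035, after the start, and the butyrate peak, with a −log10 q of 0.361, at chrX:48519753-48520217, before it. No control and butyrate H4K16ac peaks overlapped at any of the 30 starts. Of the 7 genes marked in control alone, the nearest butyrate peak lay 1276 bp from a start in MVK, 1513 bp in INSIG1 and 1686 bp in FDPS. It lay 4632 bp away in SREBF1, 30318 bp in DHCR7, 34672 bp in SCAP and 628232 bp in NSDHL. MVK, INSIG1 and FDPS were therefore marked in both lists in a window of 2.5 kb.

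**Figure D4:**
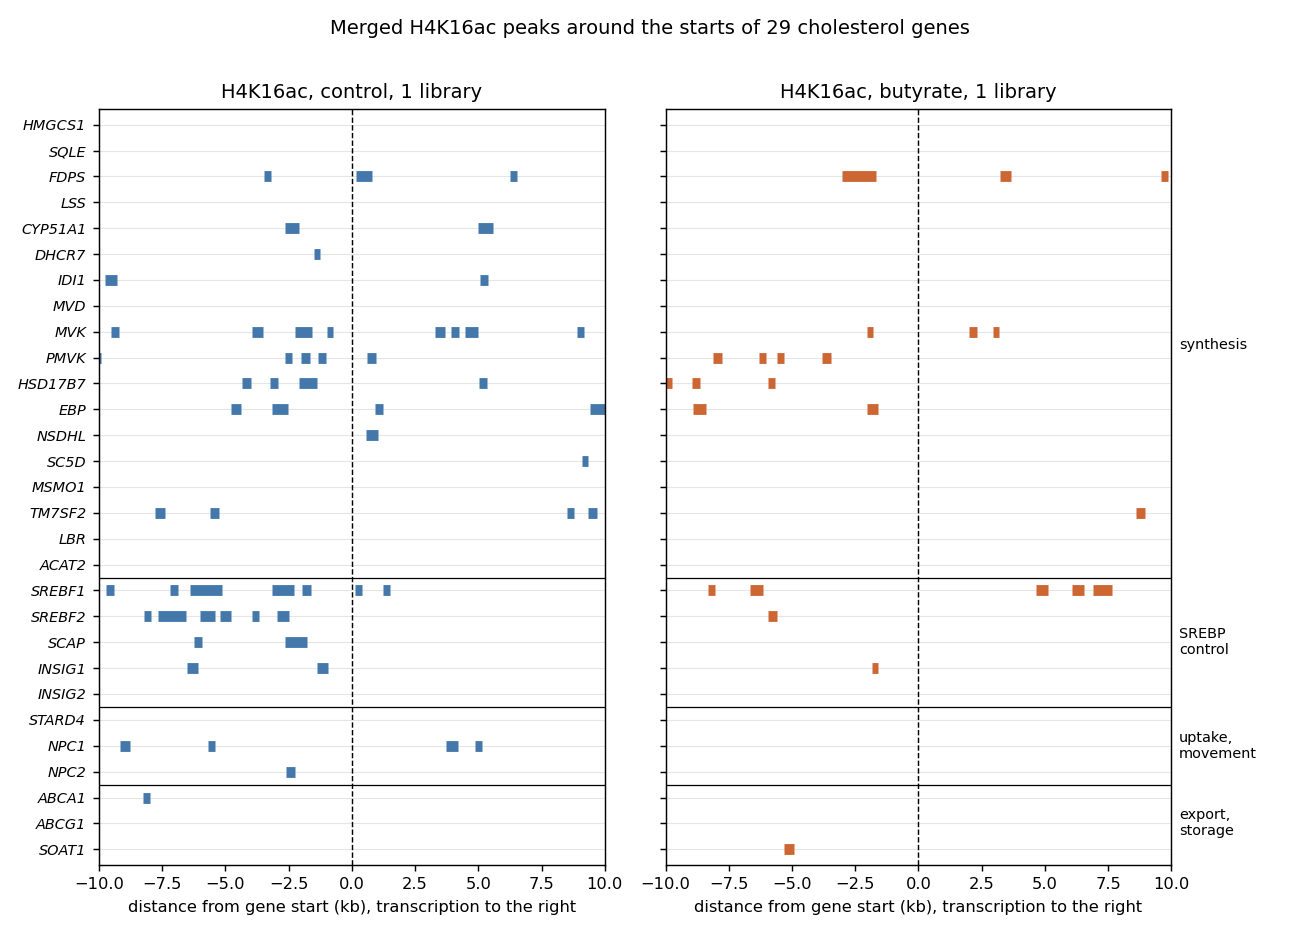
Position of merged H4K16ac peaks (bars) within 10 kb of the start of 29 cholesterol genes, in control (left) and butyrate (right), 1 library each, with distance from the start in kb on the x axis and transcription to the right. Bars are fewer with butyrate. Those of the 2 lists overlap away from the start in MVK, SREBF1, SREBF2 and TM7SF2. Distances are from 1 start per gene, so peaks beside a second start, as in PMVK, DHCR7, SCAP and EBP, appear farther out.

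Inside the genes H4K16ac peaks numbered 76 in control and 14 with butyrate, or 7.36 and 1.36 per 100 kb of gene. Fewer were listed with butyrate in 17 genes (56.7%), against 38.2% of all genes, and more in 1 (3.33%), against 10.8%. The ratio was 0.184 for the cholesterol genes and 0.346 for all genes, from lists of 30.7 and 11.9 Mb. The median fold was 2.82 for the control peaks and 3.21 for the butyrate peaks, and none of the 76 overlapped any of the 14. Over the peaks inside all genes, 95.1% of control and 85.9% of butyrate H4K16ac peaks also overlapped none of the other condition. SOAT1 had 17 peaks in control and 0 with butyrate, SCAP 11 and 1, and NPC1 9 and 0. SREBF1 alone had more with butyrate, 3 against 2. By step the counts were 27 and 7 in synthesis, 20 and 6 in SREBP control, 9 and 0 in uptake and movement, and 20 and 1 in export and storage. With equal numbers of the strongest peaks the counts were 29 and 14, fewer with butyrate in 9 of 30 genes (all genes 24.0%) and more in 4 (13.3%, all genes 18.6%). At a q of 0.05 or less they were 25 and 0, fewer in 12 genes (40.0%, all genes 33.5%) and more in none (all genes 0.177%).

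With H3K9ac at 27 of the 30 starts, few genes could carry H4K16ac alone. In control 9 genes had both marks, 18 had H3K9ac alone and none had H4K16ac alone, and with butyrate the counts were 2, 25 and 0. Of the genes with H3K9ac, 33.3% also had H4K16ac in control (all genes 30.8%) and 7.41% with butyrate (all genes 5.58%). Over all genes, 89.5% of those with H4K16ac also had H3K9ac in control and 76.7% with butyrate. FDPS, IDI1, MVK, NSDHL, ACAT2 and NPC2 have another protein-coding gene starting within 1 kb, so a peak there cannot be assigned to 1 of the 2 genes.

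Of 36 other genes of the pathway, 24 had H3K9ac at the start in control (66.7%, all genes 54.6%) and 29 with butyrate (80.6%, all genes 63.7%). The 5 marked with butyrate alone, against 9.29% of all genes, were VLDLR, a lipoprotein receptor, MYLIP, a ligase that degrades lipoprotein receptors, LIPE, which hydrolyses cholesteryl esters, SOAT2, an esterifying enzyme, and GRAMD1A, a sterol transfer protein. Their −log10 q with butyrate was 10.0 in VLDLR, 3.997 in GRAMD1A, 3.08 in SOAT2, 2.84 in LIPE and 1.54 in MYLIP. None of the 36 was marked in control alone, against 0.182% of all genes. The 7 unmarked in both lists were the sterol exporters ABCG5 and ABCG8, the sterol hydroxylases CYP27A1, CH25H and CYP7B1, and the carriers STARD5 and GRAMD1B. H4K16ac marked 7 of the 36 in control (19.4%, all genes 18.8%) and 3 with butyrate (8.33%, all genes 4.63%). Both shares lay near those of all genes. H4K16ac was in control alone at 6, against 16.8% of all genes. Among them were SCARB1, the high-density lipoprotein receptor, and ERG28 (both −log10 q 1.42), MBTPS2, a protease that releases SREBP (1.39), LRP1 (1.21) and STARD3 (1.12). It was with butyrate alone at RXRB and OSBP, at a −log10 q of 0.795 and 0.207, against 2.57% of all genes. Peaks inside the 36 genes numbered 48 and 232 for H3K9ac, a ratio of 4.83 against 2.95 for all genes. For H4K16ac they numbered 207 and 65, a ratio of 0.314 against 0.346.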

How the data were processed

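H3K9ac, H4K16ac and IgG peak lists of 6 libraries were analysed, 1 per condition and antibody, and the pair of input libraries was not used here. The submitters' processing notes name CASAVA 1.7, MACS2 2.1.0 and the build hg19. The aligner is not given in the sources used here. The authors deposited for each summit a fold (ratio of pileup to local background), −log10 p and −log10 q, and a score that is 10 times −log10 q or p. These describe, rank or filter peaks within a list. The authors' gene starts lay a median of 66 bp from RefSeq GRCh38.p14 starts, so coordinates are as deposited, with 1 added to starts, and read as GRCh38.

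Rows sharing bases were merged on chromosomes 1 to 22 and X (Python 3.11.15, pandas 2.3.3). A gene was marked when a merged peak lay within 1 kb of the authors' or RefSeq start, and a peak inside a gene overlapped its RefSeq span. Strand came from the authors' columns for 15241 of 19970 protein-coding genes and from RefSeq for 3577. Of 1152 without strand, 934 had no peak near either end and were kept as unmarked, FDFT1 among them. The other 218 had a histone peak near an end and were left out. The marking code was tested on simulated data.

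All 30 genes are accounted for. Named in full are genes marked in one list alone, the 5 highest H4K16ac −log10 q, the 3 widest and 3 narrowest H3K9ac starts per list, genes without H3K9ac at the start, the 3 largest differences inside genes per mark and direction (ties included), and other pathway genes marked in one list alone (up to 5 for H4K16ac). The genes, gene lists and marker lists were chosen with earlier results of these data known. Cover of promoter windows, overlap shares, and widths at 1 start per gene were examined after the values were seen. Alternatives changed the window, the peaks used, the start and the overlap. Starts of the RefSeq promoter table were added as an alternative after seeing the data.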

Additional observations from a re-analysis of the deposited data

How the results depend on the processing

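Of 86 values recomputed under alternatives, 53 stayed within 1.5 times the main count and 33 moved further. No paired analysis was possible because each condition had 1 library per mark, and no setting left out a replicate for the same reason.

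For H3K9ac, marking in one list alone depended on the start and on strength. With the RefSeq start only, 1 gene (PMVK) was marked with butyrate alone. With a −log10 q of at least 5 there were 3, and with a fold of at least 5 there were 7, with 2 in control alone and 17 in both lists. Inside the genes, 22 control and 98 butyrate peaks lay farther than 1 kb from the start. The butyrate count was 46 with equal numbers of top peaks and 56 when −log10 q had to reach 5.

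For H4K16ac, a window of 2.5 kb marked 14 genes in control, 5 with butyrate and 5 in both. A window of 0.5 kb marked 3 in control and 1 with butyrate, 3 in control alone, 1 with butyrate alone and 0 in both. Equal numbers of top peaks marked 3 in control, with 3 in control alone, 2 with butyrate alone (PMVK and EBP) and 0 in both. A q of 0.05 or less marked 3 in control and 1 with butyrate, 3 in control alone, 1 with butyrate alone and 0 in both. The RefSeq start only marked 1 with butyrate, 1 with butyrate alone and 0 in both. Requiring the control and butyrate peaks to overlap, by 1 bp or by at least 0.5 of the shorter, left 0 genes marked in both. Inside the genes, the control count was 29 with equal numbers of top peaks and 25 at a q of 0.05 or less, where the butyrate count was 0. Apart from the settings that remove peaks or shorten the window, the cause of each change was not tested. The H4K16ac counts at starts rest on few and weak peaks, and the depth of the libraries was not used here.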
